A study of Mus musculus with 9 samples.

Results

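Sox9, Wt1, Amh, Clu, Rhox5, Cldn11, Dhh, Fshr and Inhbb are genes by which the Sertoli cell of the testis is recognised. They are 9 of the 23074 genes of the count table, chosen by their roles in this cell. Each symbol was found in 1 row by its Ensembl ID, and all 9 were among the 15613 genes with enough counts to be tested. The RNA came from whole testes, freed of their capsule, of 5 wild type and 4 Rfx2-/- mice at postnatal days 29 to 30 (P30), with 1 library per mouse. RFX2 belongs to the RFX transcription factors, and Rfx2-/- mice lack 1 exon that encodes much of its DNA binding domain. That exon, placed between loxP sites in 129/Sv R1 ES cells, was removed by an ACTB-cre transgene on FVB/N that acts in all tissues. The line made in this way was kept on a mixed background of C57BL/6, 129/Sv and FVB/N, and another line was backcrossed to C57BL/6. The RNA-seq methods do not say which line was used. Age-matched littermates were used where that could be done. Here the wild type and Rfx2-/- columns were compared to ask whether mRNAs of the supporting somatic cell differed in a testis whose spermatids do not mature.

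Sertoli cells line the seminiferous tubule, hold the germ cells through all stages and form the junctions of the blood-testis barrier. They respond to follicle-stimulating hormone (FSH) and to androgen, and they send signals to germ cells, to Leydig cells and to the pituitary. SOX9 and WT1 establish and maintain the identity of the cell, and AMH is a hormone of the fetal and immature Sertoli cell whose expression falls as the cell matures at puberty.

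Of the 9 genes, Amh was higher in Rfx2-/- testes, with a fitted 1.89-fold change, and no other gene passed an adjusted p of 0.05. Over all genes tested, 3.48% passed this limit as higher and 7.31% as lower. None of the 9 passed the stricter limit of an adjusted p of 0.01 with a change over 2-fold in edgeR, DESeq2 or limma voom, a limit met by 0.826% of all genes as higher and 3.68% as lower. At an unadjusted p under 0.05, Amh and Rhox5 were higher and none was lower, against 13.9% and 13.7% of all genes. The fitted log2 fold change was above 0 in 8 of the 9 genes, with a median of 0.16, and in 53.1% of all genes, with a median of 0.03. Genotypes did not overlap in 1 of the 9 genes, Amh, against 6.16% of all genes separated as higher and 9.70% as lower.

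**Figure D1:**
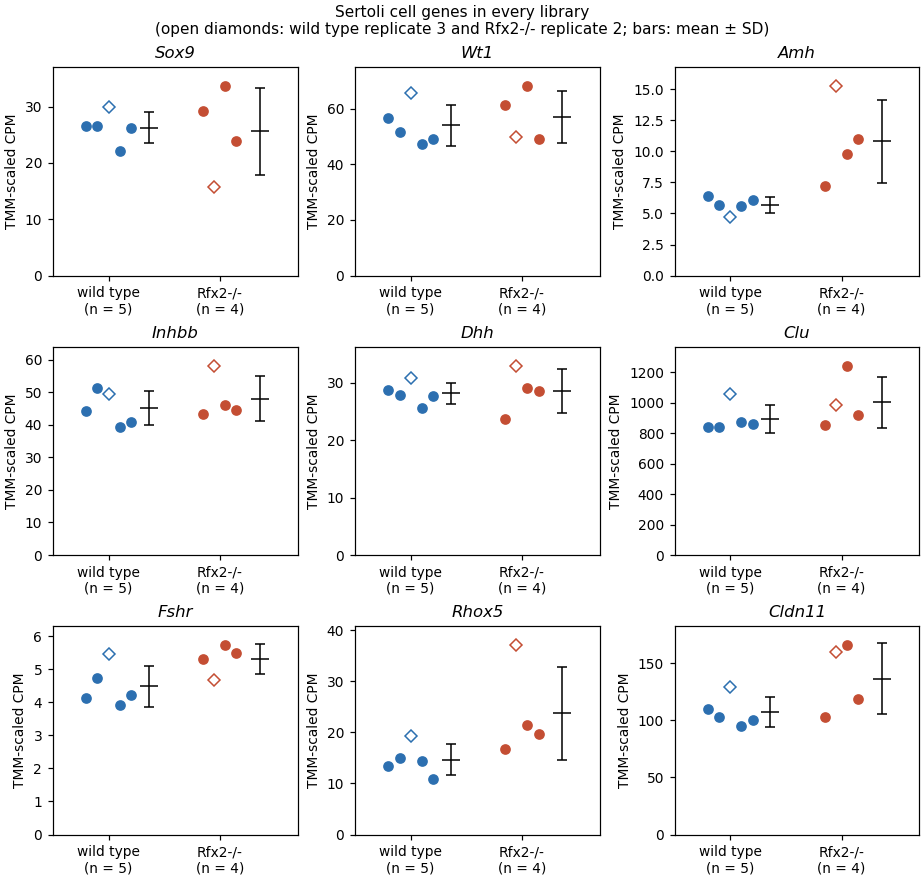
CPM (read counts relative to library size, TMM-scaled, on linear axes from 0) of the 9 Sertoli cell genes in each of 5 wild type (blue) and 4 Rfx2-/- (red) libraries, with mean ± SD beside them; open diamonds mark wild type replicate 3 and Rfx2-/- replicate 2. Amh is the gene whose groups do not overlap, with wild type libraries up to 6.42 CPM and Rfx2-/- libraries from 7.21 CPM.

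The libraries held 13574764 to 15193330 reads counted in genes, except Rfx2-/- replicate 1 with 28800855. Rfx2 itself fell from 549 ± 54.5 CPM (SD, n = 5) to 146.1 ± 59.8 CPM (SD, n = 4), without overlap (edgeR adjusted p 7.81e-04). Rfx2-/- replicate 2 stood apart. Relative to the other knockout libraries, its genes with less than 2 kb of exon were a median of 0.61 higher in log2 CPM, and its genes above 8 kb were at -0.93, with 1.75% of its counts in mitochondrial genes against 0.554% to 0.951% in the other libraries. Set against the rest of the knockout libraries, replicate 2 included, replicate 1 was at -0.37 for short and 0.53 for long genes and replicate 3 at -0.20 and 0.38, whereas wild type libraries deviated by at most 0.12 from their group.

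The transcription factors of Sertoli cell identity did not pass the test. Sox9 (ENSMUSG00000000567, GRCm38 chromosome 11, 112782224 to 112787760), which directs the gonad to the testis fate, had 26.6, 26.5, 29.9, 22.1 and 26.1 CPM in wild type replicates 1 to 5 and 29.1, 15.7, 33.6 and 23.9 CPM in Rfx2-/- replicates 1 to 4. Both the highest and the lowest library were Rfx2-/-, the lowest being replicate 2. The fitted log2 change was -0.04 (SE 0.20, 95% interval -0.47 to 0.40, edgeR adjusted p 0.923), and it was 0.14 without Rfx2-/- replicate 2.

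Wt1 (ENSMUSG00000016458, chromosome 2, 105126529 to 105173616) encodes a zinc finger factor needed to keep the Sertoli fate. Wt1 was at 56.6, 51.6, 65.6, 47.3 and 49.1 CPM in the wild type libraries, and at 61.2, 49.9, 68.0 and 48.9 CPM in the Rfx2-/- libraries. The ranges overlapped almost entirely, and the fitted log2 change was 0.08 (SE 0.15, 95% interval -0.25 to 0.41, edgeR adjusted p 0.767).

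Among the secreted signals, Amh rose. Amh (ENSMUSG00000035262, chromosome 10, 80805243 to 80807648) encodes anti-Müllerian hormone, which causes the Müllerian ducts of the male fetus to regress. Amh was at 6.42, 5.65, 4.72, 5.60 and 6.08 CPM in the wild type libraries, and at 7.21, 15.2, 9.81 and 10.99 CPM in the Rfx2-/- libraries, from 71 to 84 reads and 144 to 228 reads per library. Every knockout library was above every wild type library, with replicate 1 nearest to wild type and replicate 2 farthest. The means were 5.70 ± 0.640 CPM (SD, n = 5) and 10.8 ± 3.35 CPM (SD, n = 4), so that the fitted log2 change was 0.92 (SE 0.21, 95% interval 0.46 to 1.38, edgeR adjusted p 0.0145).

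The Amh change was past the limit in 18 of 18 alternative fits that ask for any change, with log2 fold changes of 0.64 to 1.11 and adjusted p-values of 0.00136 to 0.0410. Without Rfx2-/- replicate 2 it was 0.71 (SE 0.17, edgeR adjusted p 0.0130), and without replicate 1 it was 1.11, past the stricter limit as well (edgeR adjusted p 0.00245). In whole testis RNA, fewer cells of a type and less RNA per cell cannot be told apart. Each gene was also set against the geometric mean of the other 8 in the same library, as a description. On this log2 scale Amh lay at -3.42 to -2.69 in wild type and -2.61 to -1.72 in Rfx2-/- libraries, a difference of 0.70, or 0.53 without Rfx2-/- replicate 2. Of the 9 genes, only Amh and Dhh had groups that did not overlap on this scale, while in CPM the Dhh groups overlapped. The scale is built from the 9 members alone, so it gives no share over all genes.

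Amh lies close to other genes, and counting by strand is not stated. Sf3a2, a splicing factor gene on the same strand that ends 319 bases before Amh, had 61.6 ± 5.61 CPM in the wild type libraries and 52.3 ± 17.9 CPM in the Rfx2-/- libraries (log2 fold change -0.23, SE 0.22, edgeR adjusted p 0.508). Jsrp1, on the opposite strand 848 bases beyond Amh, had 1.49 ± 0.615 and 3.31 ± 1.76 CPM (log2 fold change 1.13, SE 0.37, edgeR adjusted p 0.0757). Both genes were named after their values were seen, for their place beside Amh, and their part in the Amh counts was not tested.

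Inhbb (ENSMUSG00000037035, chromosome 1, 119415465 to 119422248) encodes the subunit shared by inhibin B, which holds back FSH, and activin B. Inhbb was at 44.3, 51.3, 49.5, 39.4 and 40.9 CPM in the wild type libraries, and at 43.3, 58.2, 46.2 and 44.7 CPM in the Rfx2-/- libraries. Only Rfx2-/- replicate 2 was above the wild type range, and the fitted log2 change was 0.09 (SE 0.14, 95% interval -0.21 to 0.40, edgeR adjusted p 0.697).

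Dhh (ENSMUSG00000023000, chromosome 15, 98891152 to 98898540) encodes desert hedgehog, by which Sertoli cells act on Leydig and peritubular cells. Dhh was at 28.7, 27.8, 30.9, 25.6 and 27.8 CPM in the wild type libraries, and at 23.6, 33.0, 29.2 and 28.6 CPM in the Rfx2-/- libraries. Its log2 fold change was 0.02 (SE 0.13, 95% interval -0.27 to 0.31, edgeR adjusted p 0.933), the change nearest to 0 among the 9. Relative to the other 8 genes Dhh was lower in every Rfx2-/- library, at -0.71 to -0.47 against -0.38 to -0.23 in wild type on the log2 scale, a difference of -0.28, or -0.32 without Rfx2-/- replicate 2. The other 8 include Amh, Rhox5 and Cldn11, with fitted log2 changes of 0.92, 0.70 and 0.34, and Sox9 at -0.04. In CPM the Dhh groups overlapped. The relative difference depends on the other 8 genes as well as on Dhh, and its source was not tested. Dhh shares 546 bases, 12.4% of its exons, with Rhebl1 on the same strand and 25.2% with an antisense transcript, so its count is less certain than the others.

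Clu (ENSMUSG00000022037, chromosome 14, 65968483 to 65981547) encodes clusterin, an abundant secreted glycoprotein of the tubule fluid. Clu mRNA was at 842, 842, 1056, 872 and 858 CPM in the wild type libraries, and at 855, 986, 1243 and 922 CPM in the Rfx2-/- libraries. Rfx2-/- replicate 3 was the highest, and wild type replicate 3 was above 3 of the 4 knockout libraries. The fitted log2 change was 0.16 (SE 0.15, 95% interval -0.17 to 0.50, edgeR adjusted p 0.509).

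Fshr (ENSMUSG00000032937, chromosome 17, 88984952 to 89200675) encodes the FSH receptor, which among testis cells is made by Sertoli cells. Fshr mRNA was at 4.13, 4.72, 5.45, 3.91 and 4.21 CPM in the wild type libraries, and at 5.31, 4.68, 5.72 and 5.50 CPM in the Rfx2-/- libraries, from 53 to 160 reads per library. Rfx2-/- replicates 3 and 4 were above the wild type range, and replicates 1 and 2 were within it. The fitted log2 change was 0.24 (SE 0.17, 95% interval -0.12 to 0.60, edgeR adjusted p 0.363).

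Promoter sequence was read from RefSeq (GRCm38.p6, 250 bases before to 50 after the start) for 5 of the 9 genes, Rhox5, Cldn11, Dhh, Fshr and Inhbb, and not for Sox9, Wt1, Amh and Clu. The window of Rhox5 lies 50.2 kb from the GENCODE start of the gene. The letters GTTGCC or GTTACC, the core of the X-box that RFX factors recognise, were searched on both strands and were in none of the 5 windows, against 18.6% of 32851 promoters of the same length. No member is in the study's list of genes with an RFX2 peak at the promoter, which holds 977 of the 23074 genes. That list came from dissociated germ cells of younger wild type mice, so binding in Sertoli cells was not tested. In earlier work cited by the paper, RFX2 protein was limited to germ cells and not detected in Sertoli cells. The Fshr window (chr17:89200626-89200925, minus strand) is shown because the E-box, CACGTG, through which upstream stimulatory factors act on this gene, falls in it, at 61 bases before the start. These letters, which read alike on both strands and are given in capitals, occur in 7.15% of all promoters.
Fshr: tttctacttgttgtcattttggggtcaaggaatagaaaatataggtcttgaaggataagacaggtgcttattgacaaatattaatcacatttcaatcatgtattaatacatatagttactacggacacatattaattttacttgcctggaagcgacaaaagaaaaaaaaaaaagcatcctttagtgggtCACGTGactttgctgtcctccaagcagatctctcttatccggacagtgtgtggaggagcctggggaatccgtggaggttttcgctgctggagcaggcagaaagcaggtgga

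Rhox5 (ENSMUSG00000095180, chromosome X, 37804842 to 37808876) is a homeobox gene that androgen induces in Sertoli cells. Rhox5 mRNA was at 13.5, 14.9, 19.3, 14.5 and 10.9 CPM in the wild type libraries, and at 16.8, 37.0, 21.5 and 19.6 CPM in the Rfx2-/- libraries. All knockout libraries were above 4 of the wild type libraries, but replicate 1 was below wild type replicate 3, so the groups overlapped by these 2 libraries. The means were 14.6 ± 3.04 CPM (SD, n = 5) and 23.7 ± 9.08 CPM (SD, n = 4), with a fitted log2 change of 0.70 (SE 0.24, 95% interval 0.18 to 1.21), which did not pass (edgeR adjusted p 0.0843). It was 0.40 without Rfx2-/- replicate 2 (edgeR adjusted p 0.133), and it passed with DESeq2 (adjusted p 0.0437) and without Rfx2-/- replicate 1 (edgeR adjusted p 0.0315).

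Cldn11 (ENSMUSG00000037625, chromosome 3, 31149920 to 31164324) encodes claudin-11, the tight junction protein of the blood-testis barrier. Cldn11 was at 110.3, 103, 129, 95.2 and 100.4 CPM in the wild type libraries, and at 103, 159.8, 166 and 118 CPM in the Rfx2-/- libraries. Rfx2-/- replicates 2 and 3 were above the wild type range and the other two within it. The fitted log2 change was 0.34 (SE 0.17, 95% interval -0.03 to 0.72, edgeR adjusted p 0.210).

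Per kilobase of merged exon (RPKM, from TMM-scaled CPM), the wild type means ran in the order Clu, Cldn11, Rhox5, Wt1, Inhbb, Dhh, Sox9, Amh and Fshr. Clu stood at 347 ± 35.5 RPKM and Cldn11 at 57.5 ± 7.12 RPKM (SD, n = 5). Rhox5 (19.4 ± 4.03 RPKM) and Wt1 (16.1 ± 2.19 RPKM) overlapped, as did Dhh (6.40 ± 0.431 RPKM) and Sox9 (6.35 ± 0.670 RPKM), whereas the other neighbours in this order did not overlap in any wild type library. At the low end Amh had 3.41 ± 0.383 RPKM and Fshr 1.90 ± 0.262 RPKM. In Rfx2-/- testes the level of Amh was 6.48 ± 2.01 RPKM (SD, n = 4), and its libraries overlapped those of Sox9 at 6.19 ± 1.86 RPKM.

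**Figure D2:**
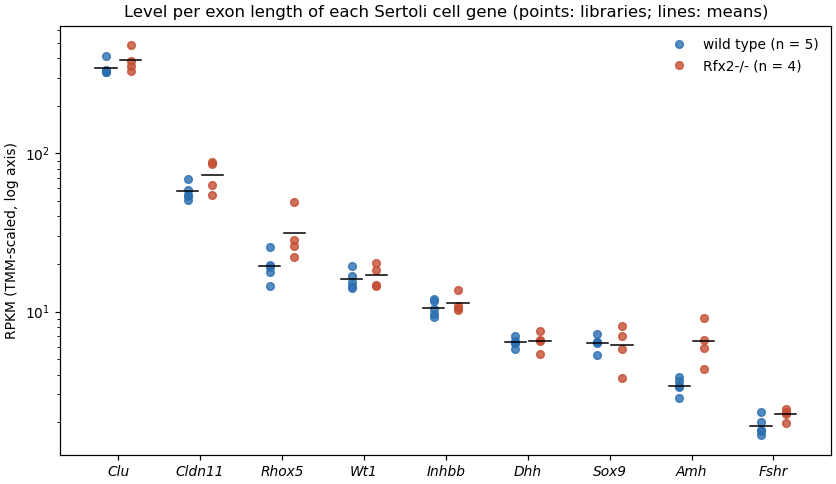
Level of each Sertoli cell gene per kilobase of exon (RPKM, log axis) in 5 wild type (blue) and 4 Rfx2-/- (red) libraries, with lines at the means. Clu is highest at 347 RPKM in wild type and Fshr lowest at 1.90 RPKM, and Amh reaches the range of Sox9 in the Rfx2-/- libraries alone.

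The genes varied together across libraries only in part. Deviations of log2 CPM from the genotype mean had a median Pearson correlation of 0.41 over the 36 pairs of members, with 28 pairs above 0 and a range of -0.77 to 0.86 (9 libraries). Genes measured in the same library share its depth and cell makeup. Without Rfx2-/- replicate 2 the median was 0.55 and 32 pairs were above 0. No such value over all pairs of genes was computed, so these correlations cannot be called particular to the members. Of 12892 other genes with a mean of at least 50 counts, the 8 whose deviations were most like the mean of the members were Rcn1, Parp12, Tubb3, Mcam, Coro1c, Man1a, Gata1 and Atp1b1, with Pearson r of 0.97, 0.97, 0.96, 0.96, 0.95, 0.95, 0.95 and 0.94 over the 9 libraries. Tubb3 and Gata1 belong to the wider list of Sertoli genes described next, and none of the 8 passed the genotype test (edgeR adjusted p from 0.130 for Man1a to 0.826 for Parp12).

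A wider list of 30 Sertoli genes, written from general knowledge, gave 28 that could be tested, Inhba and Krt18 being too low. Of these, Kitl, Cst12, Mro and Rhox8 rose and Cdh2 fell, so that 4 were higher, against 3.48% of all genes, and 1 was lower, against 7.31%. The median log2 fold change was 0.22 with 18 of 28 above 0, against 0.03 over all genes. Before adjustment, 11 of the 28 had a p under 0.05 as higher, against 13.9% of all genes, and 2 as lower, against 13.7%. None met the limit with a 2-fold change in edgeR.

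Kitl (ENSMUSG00000019966, chromosome 10, 100015630 to 100100416) encodes KIT ligand, which Sertoli cells present to differentiating spermatogonia. Kitl mRNA was at 25.0 to 27.5 CPM in the wild type libraries, and at 28.1, 52.2, 44.2 and 42.9 CPM in the Rfx2-/- libraries, without overlap. The fitted log2 change was 0.69 (SE 0.17, edgeR adjusted p 0.0183) and 0.57 without Rfx2-/- replicate 2. Replicate 1 was again the knockout library nearest to wild type.

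Rhox8 (ENSMUSG00000064137, chromosome X, 37874778 to 37878944), a homeobox gene of the same X-linked cluster as Rhox5, had 14.7, 18.1, 16.7, 15.8 and 13.9 CPM in the wild type libraries and 22.6, 36.2, 26.9 and 21.1 CPM in the Rfx2-/- libraries. All knockout libraries were above all wild type libraries, and the fitted log2 change was 0.75 (SE 0.17, edgeR adjusted p 0.0150). Rhox8 passed in 18 of 18 alternatives, with 0.57 without Rfx2-/- replicate 2, and 4.90% of its transcript sequence in runs of 50 bases was shared with other genes.

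Cst12 (ENSMUSG00000027443, chromosome 2, 148789361 to 148793546), a cystatin gene, had 71.4 to 77.8 CPM in the wild type libraries and 88.3, 259, 116 and 124 CPM in the Rfx2-/- libraries. The fitted log2 change was 0.98 (SE 0.26, edgeR adjusted p 0.0293). It fell to 0.56 without Rfx2-/- replicate 2, whose value was the farthest from wild type, and still passed (edgeR adjusted p 0.00465).

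Mro (ENSMUSG00000064036), a gene first known for its expression in the developing male gonad, had 37.1 to 44.7 CPM in the wild type libraries and 61.2, 68.6, 64.7 and 47.1 CPM in the Rfx2-/- libraries, so that the fitted log2 change was 0.58 (SE 0.14, edgeR adjusted p 0.0191). Cdh2 (ENSMUSG00000024304) encodes N-cadherin, an adhesion protein between Sertoli cells and germ cells that germ cells also make. It was measured at 71.3, 69.5, 67.6, 57.7 and 119.5 CPM in the wild type libraries, and at 25.9, 42.2, 49.8 and 45.3 CPM in the Rfx2-/- libraries, so that the fitted log2 change was -0.92 (SE 0.24, edgeR adjusted p 0.0283). Wild type replicate 5 was far above the rest, and without it the change was -0.71 (edgeR adjusted p 0.0585). Over the alternatives Kitl and Mro each passed in 15 of 18, Cst12 in 13 and Cdh2 in 11.

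RefSeq promoter windows were at hand for 2 of the genes that rose, Kitl (chr10:100015571-100015870, plus strand) and Cst12 (chr2:148789115-148789414, plus strand). They are shown because these genes differed between genotypes, and neither window holds the X-box core letters or the E-box on either strand, so that no letter is in capitals.
Kitl: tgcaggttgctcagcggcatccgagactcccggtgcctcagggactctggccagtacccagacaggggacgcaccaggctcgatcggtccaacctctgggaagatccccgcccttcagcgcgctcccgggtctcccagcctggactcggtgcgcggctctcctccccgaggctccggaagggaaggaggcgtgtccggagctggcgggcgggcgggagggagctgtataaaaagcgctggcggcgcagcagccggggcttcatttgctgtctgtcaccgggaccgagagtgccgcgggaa
Cst12: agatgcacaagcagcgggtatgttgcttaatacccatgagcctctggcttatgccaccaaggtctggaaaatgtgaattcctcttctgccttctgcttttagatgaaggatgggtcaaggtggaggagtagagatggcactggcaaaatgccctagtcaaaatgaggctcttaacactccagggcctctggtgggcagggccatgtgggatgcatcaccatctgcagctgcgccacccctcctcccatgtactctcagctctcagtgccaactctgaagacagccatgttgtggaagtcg

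**Figure D3:**
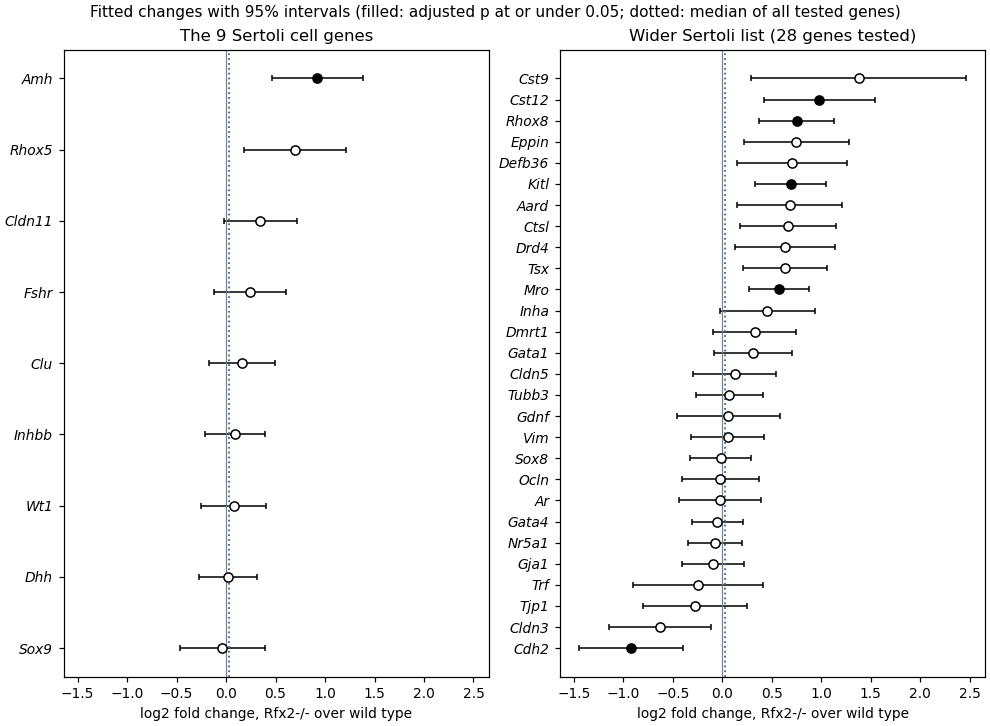
Fitted log2 fold changes (Rfx2-/- over wild type, horizontal axis) with 95% intervals for the 9 Sertoli cell genes (left) and the 28 tested genes of the wider list (right); filled points passed an adjusted p of 0.05 in edgeR and the dotted line is the median of all tested genes, 0.03. Amh is the filled point on the left at 0.92, and Kitl, Cst12, Mro, Rhox8 and Cdh2 are filled on the right.

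The number of passing genes in the wider list depended on single libraries. It was 12 without Rfx2-/- replicate 1 (11 higher and 1 lower, against 8.86% and 8.45% of all genes), 7 without Rfx2-/- replicate 2 (5 higher and 2 lower, against 4.93% and 9.77%), and 1 or 2 without wild type replicate 1, 2, 4 or 5, when as few as 1.78% of all genes passed as higher and 5.47% to 5.73% as lower. Exon length moved with Rfx2-/- replicate 2. In that library the 11 tested genes of the wider list with under 2 kb of exons were a median of 0.87 above the other 3 knockout libraries in log2 CPM, and the 6 with 4 kb or more a median of 0.12. Rhox5, Amh and Cldn11, the members under 2 kb, were 0.94, 0.72 and 0.34 above, and of the 3 members with 4 kb or more, Inhbb and Dhh were 0.38 and 0.29 above and Sox9 was at -0.86 (median 0.29). With a smooth trend on exon length removed from every library, Amh had a fitted log2 change of 0.77 (SE 0.15, edgeR adjusted p 0.00436) and Rhox5 of 0.44 (SE 0.19, edgeR adjusted p 0.140).

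**Figure D4:**
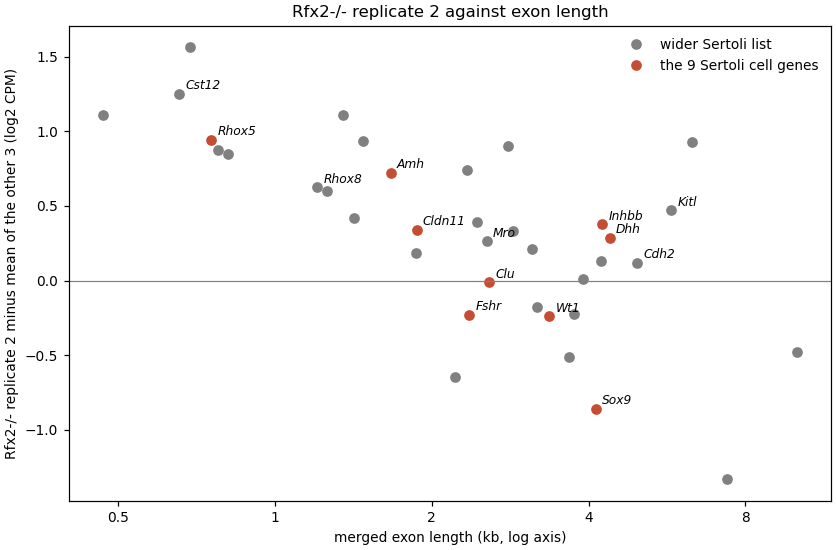
Difference in log2 CPM between Rfx2-/- replicate 2 and the mean of the other 3 Rfx2-/- libraries, against merged exon length (kb, log axis), for the 9 Sertoli cell genes (red) and the 28 tested genes of the wider list (grey). Genes under 2 kb all lie above 0, with Rhox5 at 0.94, and genes of 4 kb or more lie on both sides of it, with Inhbb at 0.38, Dhh at 0.29 and Sox9 at -0.86.

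Receptors, inhibitors and targets of the Sertoli signals were examined in a list of 18 genes, and none passed the test in edgeR, DESeq2 or limma voom. The median log2 fold change was -0.04, with 8 of 18 above 0, against 0.03 over all genes. Its sign turned without Rfx2-/- replicate 2 (0.067, 10 of 18 above 0), without wild type replicate 3 (0.078) and with total counts alone (0.078). In these fits the median of all genes was 0.035, 0.075 and 0.16. At an unadjusted p under 0.05 Fst and Bmpr1a were higher and Tgfbr3 was lower, against 13.9% and 13.7% of all genes. Amhr2, the receptor of AMH, had a fitted log2 change of 0.03 (SE 0.15, edgeR adjusted p 0.924). Fst, which encodes the activin inhibitor follistatin, was nearest to the limit (0.97, SE 0.30, edgeR adjusted p 0.0563), with 6 to 34 reads per library. Kit, the receptor of KIT ligand, had -0.52 (SE 0.27, edgeR adjusted p 0.237). The 5 genes named were chosen for mention after their values were seen.

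Markers of the other cells of the testis differed in their course. Over all genes tested, 3.48% passed as higher and 7.31% as lower, and without Rfx2-/- replicate 2 these shares were 4.93% and 9.77%. Elongating spermatid markers fell in 5 of 14 genes (Prm1, Prm2, Tnp1, Odf1 and Akap4), with a median fitted log2 change of -0.63 and a summed level of 13020 to 25525 CPM in the wild type libraries and 11378 to 15088 CPM in Rfx2-/- libraries. Genotypes did not overlap in 1 of the 14, Akap4, against 9.70% of all genes separated as lower. Tnp1 was at 864 to 2134 CPM in wild type and 541 to 1309 CPM in Rfx2-/- libraries (edgeR adjusted p 0.0416). The paper, whose limit was a p of 0.01, states that Tnp1 and Tnp2 mRNAs were not reduced. Meiotic prophase markers rose in 1 of 9 (Sycp2), with a median of 0.60, and summed to 1177 to 1504 CPM in the wild type libraries and 1531 to 3036 CPM in Rfx2-/- libraries, and without Rfx2-/- replicate 2 the median was 0.27 and the sum at most 1874 CPM. Without the same library 9 of the 14 elongating spermatid markers fell, with a median of -0.78. Round spermatid markers rose in 1 of 10, Catsper4, at 92.5 to 128.7 CPM in wild type and 180.5 to 238.2 CPM in Rfx2-/- libraries. Without Rfx2-/- replicate 2, 1 round spermatid marker was higher and 2 were lower. The 10 round spermatid markers summed to 1598 to 2574 against 1687 to 2513 CPM. Spermatogonia markers passed in 0 of 7 and summed to 305 to 349 against 303 to 475 CPM. Among somatic cells, Leydig markers passed in 0 of 8 (summed 756 to 976 against 714 to 1127 CPM). Peritubular markers passed in 0 of 6 (summed 266 to 303 against 266 to 390.0 CPM) and macrophage markers in 0 of 7 (summed 101 to 131 against 104 to 151 CPM). Endothelial markers fell in 1 of 6, Vwf, at 21.3 to 39.9 CPM in wild type and 2.47 to 12.2 CPM in Rfx2-/- libraries. The 6 endothelial markers summed to 54.1 to 69.4 against 15.4 to 51.0 CPM, and these sums include Vwf. The 15.4 CPM was Rfx2-/- replicate 2, and without it the Rfx2-/- sums were 41.3 to 51.0 CPM and 1 endothelial gene passed as higher and 1 as lower. At an unadjusted p under 0.05 in edgeR, 1 gene each of the Leydig, peritubular and macrophage lists was higher, and 0 of the spermatogonia list, against 13.9% of all genes. The same counts passed an adjusted p of 0.05 in DESeq2 and 0 in limma voom, where 6.17% and 2.86% of all genes passed as higher. Markers named here were chosen after their values were seen. No marker of these lists was at 0 in every library.

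The 9 Sertoli genes summed to 1123 to 1391 CPM in the wild type libraries and 1144 to 1623 CPM in Rfx2-/- libraries, and the 30 of the wider list to 1549 to 1700 CPM and 1634 to 2956 CPM, or up to 2086 CPM without replicate 2. Wild type replicate 3 held the lowest elongating spermatid markers of its group, at a median of -0.66 from the wild type mean, and the highest Sertoli genes, at 0.25. The part of the germ cell makeup in the Sertoli gene values was not tested. Without this library and Rfx2-/- replicate 2, a choice made after seeing the data, Amh had a fitted log2 change of 0.64 (SE 0.18, edgeR adjusted p 0.0193) and Rhox5 of 0.52 (SE 0.15, edgeR adjusted p 0.0219).

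**Figure D5:**
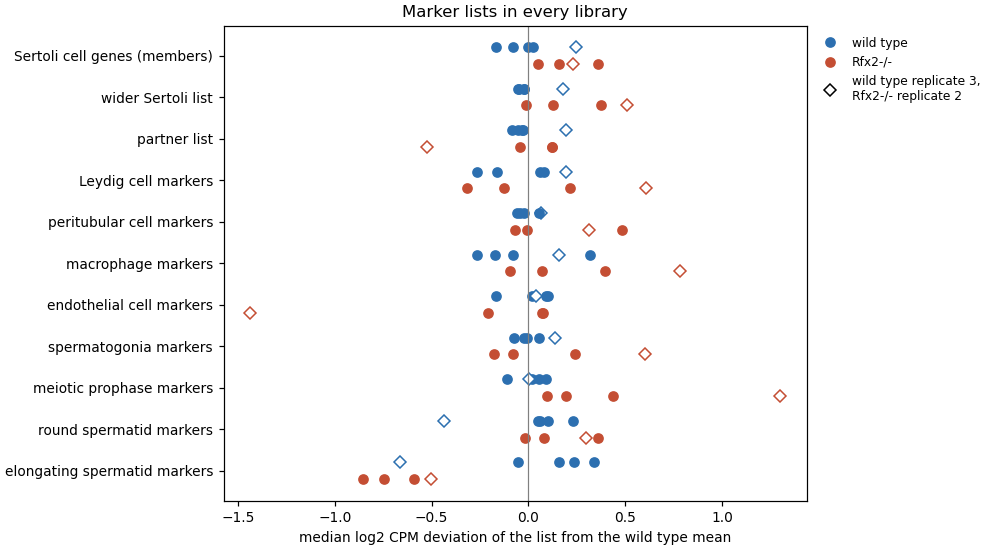
Median deviation of each marker list from the wild type mean (log2 CPM, horizontal axis) in every library, wild type in blue and Rfx2-/- in red, with wild type replicate 3 and Rfx2-/- replicate 2 as open diamonds. The 9 Sertoli genes lie between -0.17 and 0.25 in wild type and 0.05 and 0.36 in Rfx2-/- libraries, which overlap. Elongating spermatid markers lie at -0.66 to 0.34 in wild type and -0.86 to -0.50 in Rfx2-/- libraries, which overlap by wild type replicate 3 at -0.66.

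When libraries were scaled by total counts alone, the median of all genes moved to 0.16, 7.58% of genes passed as higher and 6.14% as lower, and all 9 members had a fold change above 0, with Amh at 1.06.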

How the data were processed

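RNA-seq libraries of 5 wild type and 4 Rfx2-/- testes were taken from the deposited table of raw counts. Per the authors' methods, RNA from silica columns was made into TruSeq libraries and read as single reads on a HiSeq2000. Reads were mapped to GRCm38 (Ensembl release 70), those with several positions discarded, and counted by the authors over merged exons of protein coding isoforms, without reads that overlap exons of different genes. The submitters' processing notes name CASAVA 1.8.2, STAR 2.4 and featureCounts 1.4.6. The methods also give another read length and aligner, and strand use is not stated, so reads of overlapping antisense genes cannot be told apart.

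Of the gene IDs, 96.6% had a GENCODE M21 name. Counts were tested with edgeR 4.0.16 in R 4.3.3 (quasi-likelihood F test, robust, TMM factors, filterByExpr, genotype as the only factor), with Benjamini-Hochberg adjustment over 15613 genes. DESeq2 1.42.0, limma voom (limma 3.58.1), other scaling, no filter, a length offset, thinning of the deepest library and omission of each library were alternatives. Intervals are 95% intervals from the fit. The floor of 3 counts is 0.0996 CPM in Rfx2-/- replicate 1 and 0.196 to 0.234 CPM in the others, and covers counting error only. Within a genotype, pairs of libraries differed by a chi-square of at least 4.52 per gene, more than counting error alone gives. So no library repeated another, but this check cannot show that each came from a different mouse. The number of mice is as the authors state it. The procedure was tested on simulated data.

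Genes named in the text were all 9 members, Rfx2, the genes of the wider Sertoli list and the partner list that passed an adjusted p of 0.05, the 8 genes most like the members, and those said to be chosen after their values were seen. The members and lists were chosen with earlier results of these data known.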

Additional observations from a re-analysis of the deposited data

Results flagged for a closer look

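Values that stood apart within a genotype were looked for by Dixon's ratio in 52 groups of 4 or 5 libraries, of which chance flags about 1 in 20, and 5 were found. Clu had 1056 CPM in wild type replicate 3 against 842 to 872 CPM in the other wild type libraries. In the same library the median deviation from the wild type mean was 0.18 for the wider Sertoli list (others -0.06 to -0.02), 0.19 for the list of receptors and targets (others -0.09 to -0.03) and -0.43 for round spermatid markers (others 0.05 to 0.23). Cdh2 had 119.5 CPM in wild type replicate 5 against 57.7 to 71.3 CPM in the others.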

How the results depend on the processing

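The number of Sertoli genes that passed was 1 in most fits. In the main fit 3.48% of all genes passed as higher and 7.31% as lower. It was 2 with DESeq2 (6.17% and 9.61% of all genes). It was also 2 without wild type replicate 3 and Rfx2-/- replicate 2 together (6.17% and 12.6%). With single libraries left out it was 1 to 2, the 2 being without Rfx2-/- replicate 1 (8.86% and 8.45%). The added gene was Rhox5 (log2 fold change 0.71 with DESeq2, 0.52 without both libraries and 0.86 without Rfx2-/- replicate 1). By p and 2-fold change the number of Sertoli genes was 0, but 1 with total counts alone and 0 to 1 with single libraries left out. In the wider list 8 genes passed with total counts alone (7 higher and 1 lower, against 7.58% and 6.14% of all genes) and 8 with DESeq2 (7 higher and 1 lower, against 6.17% and 9.61%), and 1 to 12 with single libraries left out. In the list of receptors and targets 1 passed as higher with total counts alone, against 7.58% of all genes. With the length trend removed 1 was higher and 1 lower, against 5.01% and 9.58%. With Rfx2-/- replicate 1 thinned 1 was higher, against 3.53%. With the length trend removed and without Rfx2-/- replicate 2, 1 was lower, against 11.2%. With single libraries left out 0 to 1 passed, against 1.78% to 8.86% of all genes as higher and 5.44% to 9.77% as lower. Over all genes, calls of 575 lower and 129 higher became 483 and 191 with total counts alone, 272 and 29 in a test against the 2-fold limit, and 693 and 198 with DESeq2. The sign of 3 values near 0 turned. Sox9 had 0.091 with total counts alone, 0.19 without wild type replicate 3 and Rfx2-/- replicate 2 together, 0.13 with the length trend removed and without Rfx2-/- replicate 2, and -0.16 to 0.14 with single libraries left out. Dhh had -0.020 and -0.064 in the latter 2 joint settings and -0.056 to 0.13 with single libraries left out, and Inhbb -0.020 in the last joint setting and -0.012 to 0.17 with single libraries left out. The cause was not tested. Fits with fewer libraries have less power, and 53 reads was the lowest count of a member (Fshr). No paired analysis was possible because replicate numbers follow the order of deposition and the animal numbers of the 2 genotypes are not shared. The settings that joined 2 choices were added after seeing the data.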
